A study of Mus musculus with 36 samples.

Results

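The genes described here are the cell division genes of mouse liver, read across all 12 groups of a study of the liver enzyme Cyp51. They were taken by name: every gene whose symbol starts as the A, B and E cyclins, the Cdc, Cenp, Mcm and Bub genes, the Aurora kinases or the Polo-like kinases do, plus Mki67, Top2a and Cdk1. This gave 84 of the 19664 genes with values, and all 84 entered every test, 10 of them dim, with a mean under 6 on the log2 scale. Ccnb1, which the rule also covers, was not analysed here. Naming takes in genes that share a symbol with division genes but not their work: 11 members are named for Cdc42, a GTPase of cell shape, or its effectors, and 9 others, such as the chaperone partner Cdc37, have further roles.

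Livers of 36 mice were measured on Affymetrix arrays, 1 mouse per array. LKO mice lack Cyp51, the lanosterol demethylase of cholesterol synthesis, in the liver, and LWT mice are their control littermates; the sources used here do not name the driver of the deletion. All were of a mixed background, 129/Pas at 10% and C57BL/6J at 90%, went on a diet at 3 weeks of age for 16 weeks, and were fasted for 5 h before the liver was taken. LFnC was a cholesterol-free chow low in fat, HFnC a high-fat diet without cholesterol and HFC a high-fat diet with 1.25% cholesterol, and the chow came from another supplier than both high-fat diets. Each combination of diet, sex and genotype held 3 mice, numbered by the batch in the labels, so that a genotype comparison on 1 diet set 6 LKO against 6 LWT mice.

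Values are log2 array intensities, and a change is a difference of log2 means, LKO minus LWT with both sexes weighted equally. A gene was called, and is said to rise or fall, at a limma p under 0.05 after Benjamini-Hochberg adjustment over all 19664 genes. Cyp51 read lower in every LKO mouse than in any LWT mouse of its diet. Markers of hepatocytes were at nearly the same level in all groups. Males 1 and 2 of the HFC LWT group stood apart from male 3 and from the LKO mice of their diet. The main changes of members that rest on them are given with and without them. Shares by unadjusted p and calls of genes outside the naming rule are given only with them. Levels are not compared between genes, since each probe set has its own brightness.

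An adult liver cell is usually at rest and re-enters the cycle after injury or loss of tissue. Before S phase the Mcm2 to Mcm7 proteins load onto replication origins as a ring-shaped helicase. In mitosis Cdk1 with the A and B cyclins, the Aurora and Polo-like kinases and the Bub checkpoint proteins drive and guard the separation of chromosomes at their centromeres. Transcription of the first group is classically tied to E2F sites, and of the second to CCAAT boxes, bound by NF-Y, and to CHR elements, bound by the DREAM complex.

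The letters upstream of the start site are shown for members that carry the results below: 4 mitotic genes, 2 genes of the helicase ring, and Mcm10, which moved the other way. The sequences are the 150 bases before the start, from RefSeq on GRCm38.p6, 5′ to 3′ along the gene's own strand: Mki67 at chr7:135716380-135716529 on the minus strand, Top2a at chr11:99024190-99024339 on the minus strand, Cdk1 at chr10:69352913-69353062 on the minus strand, Ccnb2 at chr9:70421555-70421704 on the minus strand, Mcm6 at chr1:128359706-128359855 on the minus strand, Mcm5 at chr8:75109359-75109508 on the plus strand, and Mcm10 at chr2:5012792-5012941 on the minus strand. Capitals mark the CCAAT box, the CHR word TTTGAA with its variant spelled TTCGAA, and the E2F words TTTCCCGC, TTTGGCGC, TTTGCCGC and TTTCGCGC, each on either strand.
Mki67: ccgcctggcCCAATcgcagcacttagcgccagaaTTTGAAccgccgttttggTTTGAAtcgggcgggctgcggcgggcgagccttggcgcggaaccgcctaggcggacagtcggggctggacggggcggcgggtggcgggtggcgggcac
Top2a: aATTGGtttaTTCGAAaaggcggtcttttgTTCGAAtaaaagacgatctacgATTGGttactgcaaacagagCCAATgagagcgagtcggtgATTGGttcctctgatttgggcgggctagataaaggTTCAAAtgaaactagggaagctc
Cdk1: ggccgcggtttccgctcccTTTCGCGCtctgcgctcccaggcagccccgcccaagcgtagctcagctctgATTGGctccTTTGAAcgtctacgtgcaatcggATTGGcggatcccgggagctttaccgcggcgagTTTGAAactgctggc
Ccnb2: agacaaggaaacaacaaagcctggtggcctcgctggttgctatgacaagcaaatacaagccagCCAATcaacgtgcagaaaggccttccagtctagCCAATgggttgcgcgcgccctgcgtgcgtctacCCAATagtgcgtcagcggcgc
Mcm6: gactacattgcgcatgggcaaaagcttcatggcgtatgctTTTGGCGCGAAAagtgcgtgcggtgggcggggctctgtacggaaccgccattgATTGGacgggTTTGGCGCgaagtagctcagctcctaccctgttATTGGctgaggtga
Mcm5: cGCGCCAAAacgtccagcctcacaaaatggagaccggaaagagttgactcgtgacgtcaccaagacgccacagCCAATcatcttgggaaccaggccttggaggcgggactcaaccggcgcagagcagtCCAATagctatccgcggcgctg
Mcm10: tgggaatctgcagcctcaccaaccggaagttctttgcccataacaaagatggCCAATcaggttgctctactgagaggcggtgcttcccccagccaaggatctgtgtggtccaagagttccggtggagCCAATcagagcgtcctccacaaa

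The Mki67, Top2a and Cdk1 stretches hold both CCAAT and CHR words, that of Ccnb2 holds 3 CCAAT words, and those of Mcm6 and Mcm5 hold E2F words besides CCAAT. In Mcm6 a pair of E2F words on opposite strands overlap in 1 run of capitals. The stretch of Mcm10 holds 2 CCAAT words and neither of the others. In the 250 bases before the start, CCAAT stood in 47 of 89 promoters of the 77 members found in the table (52.8%), against 33.8% of all 32851 promoters. CHR words stood in 22 (24.7%, against 17.1%) and E2F words in 10 (11.2%, against 1.86%). These counts describe letters, not sites in use.

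On chow, Mki67, Top2a, Ccna2 and 5 mitotic kinase and checkpoint genes rose in LKO livers. Mki67, the Ki-67 protein that marks cycling cells, rose by 0.90 (SE 0.24, 1.86-fold, adjusted p = 0.0071). Ccna2, the cyclin of S phase and mitosis, rose by 0.84 (SE 0.26, adjusted p = 0.015), and Top2a, which untangles DNA strands, by 0.72 (SE 0.23, adjusted p = 0.02). Of the 84 members 17 rose (20.2%) and 6 fell (7.14%), where 14.2% and 19.3% of all genes tested did and 33.4% were called in all. The median change of the members was 0.091 against -0.069 for all genes. With each array centred on its own median the split was 14 higher and 13 lower, where 11.3% of all genes were higher and 39.4% lower. The balance of directions so depends on the scaling, for the members and for all genes. Without LFnC female LKO replicate 3 the count of called members was 15. In bulk liver, fewer cells of a type and less RNA per cell cannot be told apart, and the same holds for more.

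Mki67 read 6.91, 7.37 and 7.51 in LWT females and 8.04, 7.32 and 8.31 in LKO females on chow. In males it read 7.13, 7.01 and 7.14 in LWT and 7.89, 8.32 and 8.58 in LKO. The males did not overlap, and LKO female 2 lay inside the LWT range. Ccna2 read 6.84, 7.28 and 7.26 in LWT and 7.87, 7.42 and 8.06 in LKO females, and 7.12, 6.92 and 7.28 in LWT and 7.85, 7.91 and 8.62 in LKO males. All 6 LKO mice were above all 6 LWT mice. For Top2a the 6 LWT mice lay between 6.60 and 6.98 with a median of 6.74, and the 6 LKO mice between 6.98 and 7.88 with a median of 7.43. Within batches 1, 2 and 3 the change of Mki67 was 0.94, 0.63 and 1.12. Top2a lost its call without LFnC female LKO replicate 3, and as the mean of its array rows it changed by 0.49 (adjusted p = 0.009).

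**Figure D1:**
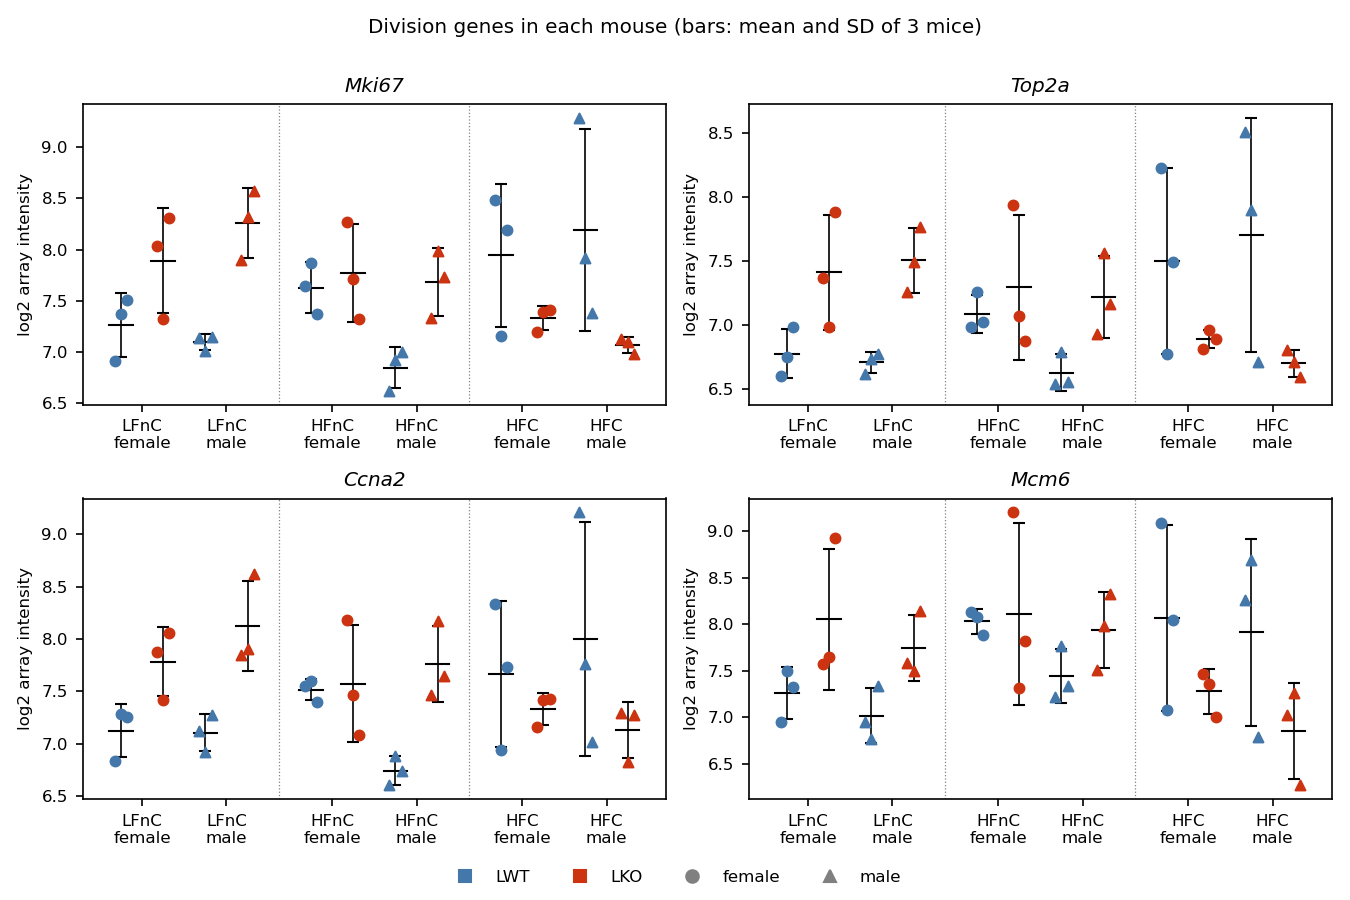
Log2 array intensity of Mki67, Top2a, Ccna2 and Mcm6 in each of the 36 mice, by diet and sex; blue points are LWT and red points LKO, and black bars give the mean and SD of 3 mice. On LFnC the red points of Top2a, Ccna2 and Mcm6 lie above all blue ones, though for Top2a and Mcm6 the lowest red and highest blue points nearly touch. On HFC the blue points spread widely, with Mki67 from 7.15 to 9.29, while its red points lie between 6.98 and 7.40.

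Among cyclins and Cdk1, only Ccna2 rose on chow, and Ccna1, the cyclin A of the germ line, fell by 0.13 on the log2 scale (adjusted p = 0.026). Ccnb2, a mitotic cyclin, stood at 0.60 (adjusted p = 0.055), Cdk1 at 0.41 (adjusted p = 0.099), and Ccne1, a cyclin of entry into S phase, at 0.06. Of 8 mitotic kinases and checkpoint genes 5 rose. Bub1, a checkpoint kinase, rose by 0.53 (SE 0.20), Plk1, the main mitotic Polo-like kinase, by 0.51 (SE 0.19), Plk4, which starts centriole copying, by 0.41 (SE 0.15), Aurkb, the kinase of the chromosomal passenger complex, by 0.29 (SE 0.11), and Bub3 by 0.21 (SE 0.08), with adjusted p from 0.038 for Plk4 to 0.046 for Aurkb. These calls lie close to the threshold: of 12 fits that each left out 1 chow mouse, Aurkb and Bub1 lost their call in 9 and Plk1 in 6. Aurka, the spindle pole kinase, stood at 0.10, Bub1b at 0.16 and Aurkc, the Aurora kinase of germ cells, at -0.13, none of them called. Cdc20, which activates the anaphase-promoting complex, was not called at 0.18, while the subunit Cdc23 rose by 0.21 and the subunit Cdc26 fell by 0.25 on the log2 scale.

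The 6 genes of the helicase ring had changes above 0 on chow, and none was called. Mcm2 to Mcm7 had changes of 0.31 to 0.76 with adjusted p from 0.07 to 0.14. Mcm6 read 6.95, 7.50 and 7.33 in LWT and 7.57, 7.65 and 8.93 in LKO females. In males it read 6.95, 6.76 and 7.34 in LWT and 7.59, 7.50 and 8.15 in LKO. The genotypes did not overlap but nearly touched, with the highest LWT mouse at 7.495 and the lowest LKO mouse at 7.496. Female LKO 3 had the highest Mcm6 value. The change of Mcm6 was 0.76 (SE 0.33, adjusted p = 0.07). When only the chow groups were fitted, Mcm6 (adjusted p = 0.023), Mcm2 (adjusted p = 0.0086) and Ccnb2 (adjusted p = 0.0029) were called. Cdc6, a loader of the ring, and Cdc45 and Cdc7, which help to fire it, had changes of -0.05, -0.05 and -0.02.

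Mcm10, which joins the helicase when origins fire, fell on chow: its change was -0.60 (SE 0.13, adjusted p = 0.0017). It read 7.68, 8.40 and 7.86 in LWT and 7.68, 7.37 and 7.75 in LKO females, and 8.52, 8.75 and 8.32 in LWT and 8.04, 7.58 and 7.49 in LKO males. The males did not overlap and the females did. Within batches the change was -0.24, -1.10 and -0.47. Its level also differed by sex: females read lower than males by -0.55 (SE 0.11, adjusted p = 0.0017) in LWT and by -0.50 (SE 0.11, adjusted p = 0.0056) in LKO mice, where 6.40% of all genes were called by sex in LWT mice (3.04% higher in females, 3.37% lower) and 5.52% in LKO mice (2.53% higher, 2.99% lower). In LKO mice it was higher on HFnC than on LFnC by 0.64 (SE 0.13, adjusted p = 0.0079), where 5.04% of all genes were called, 1.80% higher and 3.24% lower.

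Of 21 members with a Cenp symbol, grouped here by name, 2 rose (9.52%) and 1 fell (4.76%) on chow, where 14.2% and 19.3% of all genes did. Cenpt, which ties the centromere to the outer kinetochore, rose by 0.48 (SE 0.09, adjusted p = 0.00025), with LWT mice between 7.43 and 7.79 and LKO mice between 7.83 and 8.38. Cenpc1, a scaffold of the inner kinetochore, rose by 0.34 and Cenpv fell by 0.20 on the log2 scale. Cenpa, the histone that marks centromeres, stood at -0.12 (adjusted p = 0.23). Cenpm, a subunit of the inner kinetochore, read 9.69, 9.65 and 8.98 in LWT and 8.46, 9.39 and 8.59 in LKO females but 8.20, 8.90 and 8.93 in LWT and 9.38, 9.24 and 9.29 in LKO males. Its averaged change was near 0, and the difference between the sexes of -1.26 (SE 0.36) did not pass the test (adjusted p = 0.25; 0.00% of all genes called, and none of the 84 members, for genotype by sex on LFnC or on HFC). Over all LWT mice it was higher in females by 0.52 (adjusted p = 0.026).

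Polo-like kinases with roles outside mitosis shared no direction. Plk2, induced by stress and growth signals, rose on chow by 0.60 (SE 0.16, adjusted p = 0.0074), from 7.55, 7.86 and 7.86 to 8.29, 8.72 and 8.76 in females and from 8.44, 7.46 and 8.26 to 8.42, 8.30 and 8.52 in males. The females did not overlap and the males did. Plk5, which lacks a working kinase domain in mammals, fell by 0.30 on the log2 scale. Plk3, a stress kinase, ran from 8.70 to 11.91 over the 36 mice, the widest range among the members, with an SD of up to 1.26 within a group, and no genotype comparison called it. On HFnC its change was 0.70 (SE 0.38, adjusted p = 0.48), above 0 in all 3 batches (0.80, 0.64 and 0.65).

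**Figure D2:**
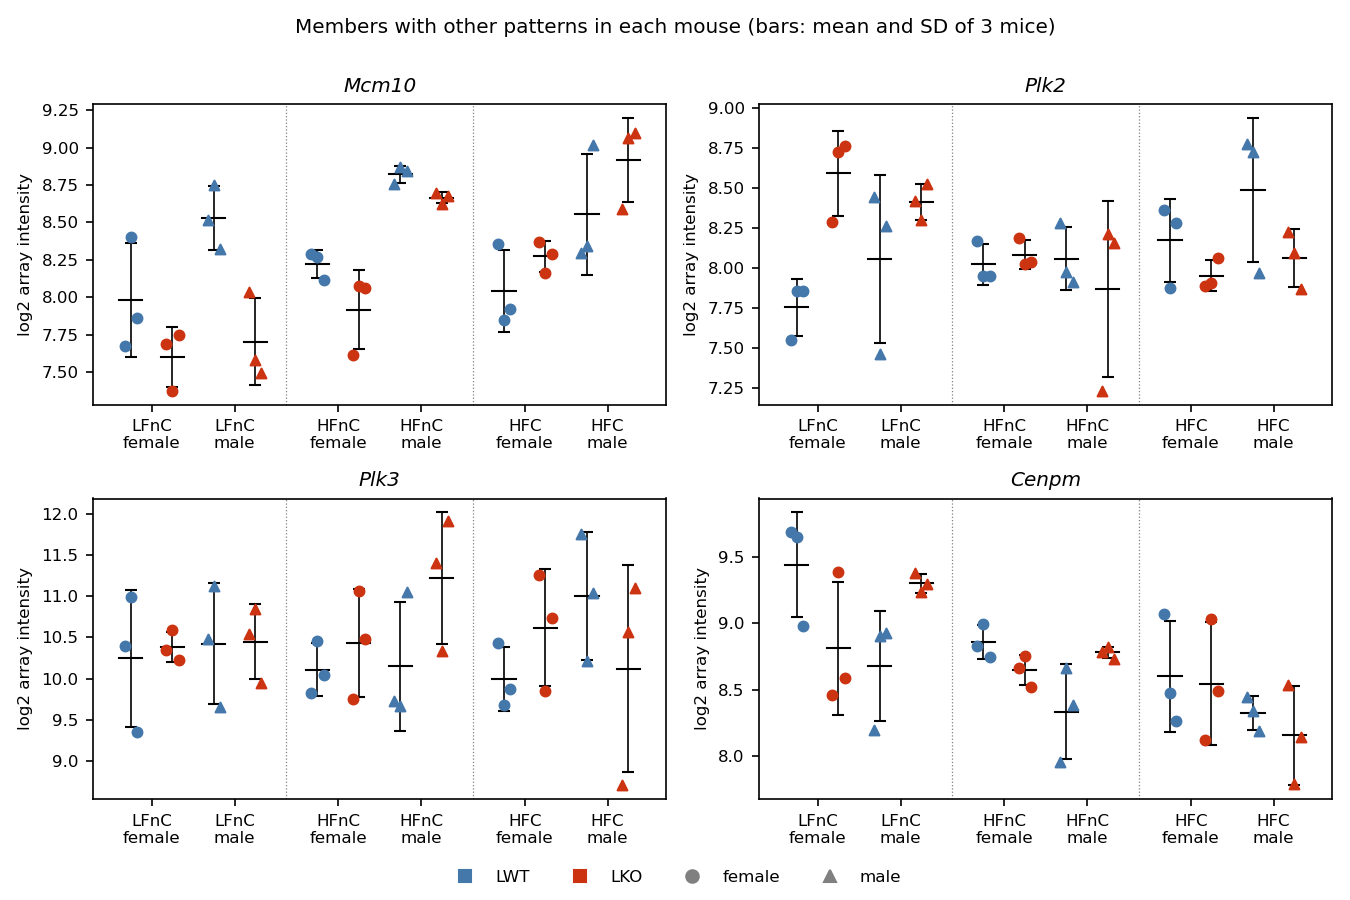
Log2 array intensity of Mcm10, Plk2, Plk3 and Cenpm in each of the 36 mice, by diet and sex; blue points are LWT, red points LKO, and black bars the mean and SD of 3 mice. Mcm10 is lower in females than in males, and Plk3 varies from 8.70 to 11.91 with wide spread within groups.

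Among phosphatases, Cdc14a rose on chow by 0.39 (SE 0.09, adjusted p = 0.0022), while Cdc25c, which activates Cdk1, stood at -0.07. Of the 11 members named for Cdc42, 4 rose: Cdc42se2 by 0.54 (SE 0.08, adjusted p = 4.7e-05), Cdc42se1 by 0.46, Cdc42ep1 by 0.37 and Cdc42 itself by 0.36. Cdc42se2 had the smallest adjusted p of all 84 members, with LWT mice between 8.79 and 9.05 and LKO mice between 9.29 and 9.70, so part of the count of members that rose is made of genes of cell shape. Of the 9 other members 1 fell, Cdc20b by 0.28 on the log2 scale, and all 9 had changes below 0. In all, 9 members had every LKO mouse above every LWT mouse on chow (Ccna2, Cdc42, Cdc42se1, Cdc42se2, Cenpt, Mcm6, Plk1, Plk4 and Top2a), 10.7% of them, where 6.24% of all genes did. No member had every LKO mouse below every LWT mouse, where 4.32% of all genes did.

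On the high-fat diet without cholesterol no member was called, where 0.0203% of all genes were (0.0153% higher, 0.00509% lower), and 6 members (7.14%) had an unadjusted limma p under 0.05, against 12.0% of all genes. The median change was 0.046 against 0.010 for all genes, and the smallest adjusted p was 0.15, for Cenpt. Mki67 stood at 0.49 (SE 0.24), Ccna2 at 0.54 (SE 0.26) and Mcm6 at 0.29 (SE 0.33). In males Ccna2 read 6.60, 6.88 and 6.74 in LWT and 7.47, 8.17 and 7.64 in LKO, with no overlap, and in females 7.55, 7.60 and 7.40 against 8.18, 7.46 and 7.08, with overlap; the difference between the sexes was not tested on this diet. Every LKO mouse was above every LWT mouse for 1 member, Cdc25c, and below for none (0.636% and 0.158% of all genes). The difference in genotype change between HFnC and LFnC was called for no member (0.00% of all genes called), with 3 called without HFnC female LKO replicate 1.

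On the high-fat diet with cholesterol Mki67 read 8.48, 7.15 and 8.19 in LWT and 7.20, 7.39 and 7.40 in LKO females, and 9.29, 7.91 and 7.38 in LWT and 7.13, 7.10 and 6.98 in LKO males. The LKO mice were low and close together, and the LWT mice were spread out, with female 2 as low as the LKO females. The change was -0.87 (SE 0.24, adjusted p = 0.073), that of Top2a -0.81 (SE 0.23, adjusted p = 0.079) and that of Mcm6 -0.93 (SE 0.33, adjusted p = 0.16). Top2a changed by -0.39 as the mean of its array rows (adjusted p = 0.17). No member was called, where 1.00% of all genes were (0.0814% higher, 0.920% lower), and 32 of 84 (38.1%) had an unadjusted limma p under 0.05, against 15.1% of all genes. The median change was -0.092 against 0.016 for all genes. Without HFC male LWT replicates 1 and 2 these medians were -0.034 and -0.00017. Members with every LKO mouse below every LWT mouse were Cdc14a, Cdc25c and Cdc42se2, 3.57% of them, where 0.829% of all genes were, and no member had every LKO mouse above (0.122% of all genes). Without HFC male LWT replicates 1 and 2 the change of Mki67 was -0.46 (SE 0.24), that of Ccna2 -0.11 and that of Mcm6 -0.36. Leaving out male LWT replicate 3 alone gave 26 called members, and leaving out female LWT replicate 2 gave 5. These 2 mice had the lowest Mki67 values of the HFC LWT mice. The shares of all genes in these fits are not given here, so the counts are not read as results about the members.

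**Figure D3:**
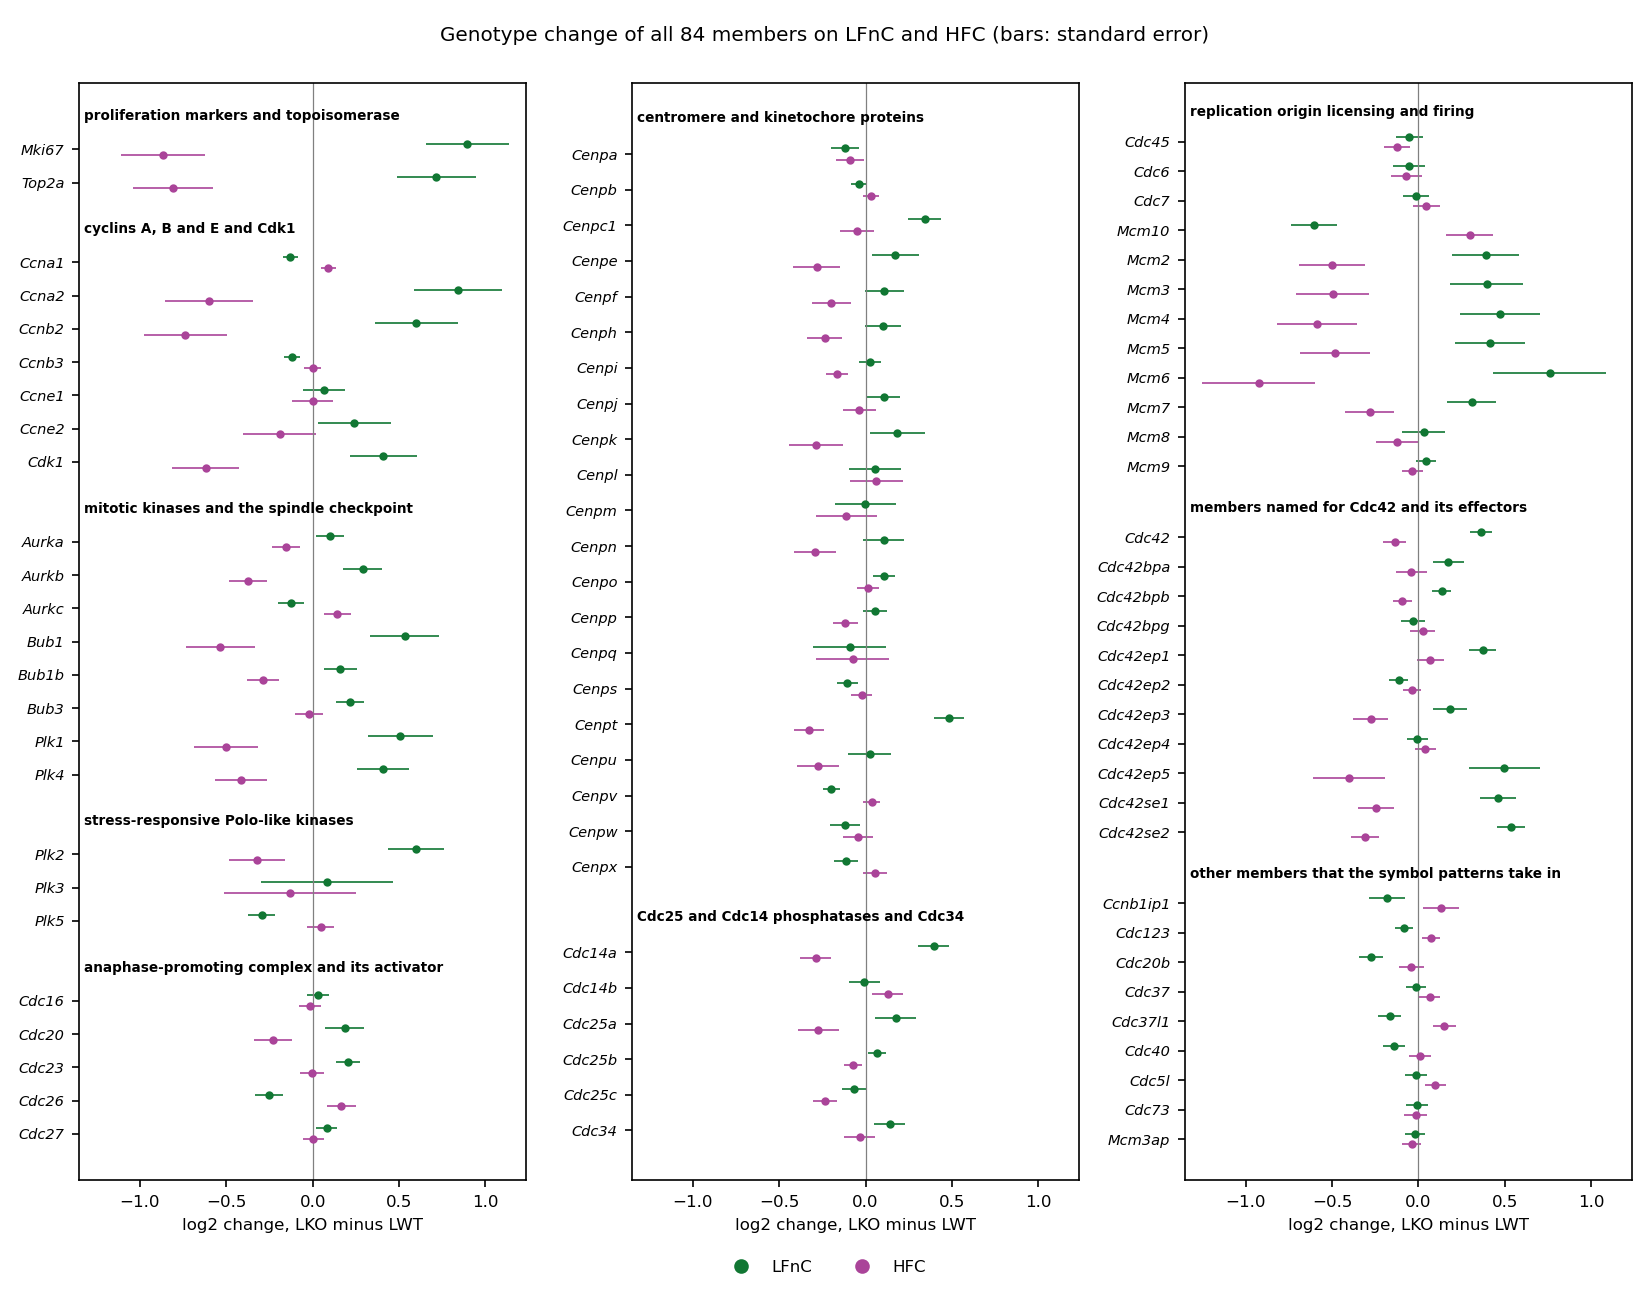
Change of all 84 members between genotypes, LKO minus LWT on the log2 scale with standard errors, on LFnC (green) and HFC (purple), ordered by role. Mki67, Top2a, Ccna2, Ccnb2, Cdk1, Plk1, Bub1 and Mcm2 to Mcm7 lie above 0 on LFnC and below 0 on HFC, and Mcm10 lies at -0.60 and 0.30.

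The direct test set the genotype change on HFC against that on LFnC. Both diets have their own 12 mice, and they differ in supplier, fat and cholesterol. Of the 84 members 29 had a lower change on HFC (34.5%) and 6 a higher one (7.14%), where 14.6% and 16.7% of all genes did and 31.3% were called in all. The median difference was -0.184 against 0.093 for all genes. Mki67 differed by -1.76 (SE 0.34, adjusted p = 0.00041), Top2a by -1.52 (SE 0.32, adjusted p = 0.00098), Ccna2 by -1.44 (SE 0.36, adjusted p = 0.0041), Ccnb2 by -1.34 (SE 0.34) and Mcm6 by -1.69 (SE 0.46, adjusted p = 0.0076). Bub1 (-1.07), Mcm4 (-1.06), Cdk1 (-1.03), Plk1 (-1.01) and Plk2 (-0.92) followed. Higher were Mcm10 (0.90, SE 0.19, adjusted p = 0.00094), Cdc26 (0.42), Plk5 (0.34), Cdc37l1 (0.32), Cenpv (0.23) and Ccna1 (0.22). As the mean of its array rows Top2a differed by -0.87 (adjusted p = 0.0014), and Cdc20 (-0.41) lost its call in 15 of 24 fits that each left out 1 mouse. With array medians centred the split was 24 lower and 18 higher, where 11.4% of all genes were lower and 42.7% higher. The median of all genes moved from 0.093 to 0.21.

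The count of called members, and that of all genes, fell without male LWT mice 1 and 2 on HFC. Without them the median difference was -0.124 for the members and 0.0625 for all genes. It was -1.35 for Mki67, -1.03 for Top2a, -0.95 for Ccna2, -0.91 for Ccnb2, -0.70 for Plk1, -0.67 for Cenpt and 0.67 for Mcm10. Mcm6 (-1.12), Bub1 (-0.74), Mcm4 (-0.73), Cdk1 (-0.71), Plk2 (-0.66) and Mcm2 (-0.58) were then among the members not called. That fit has 1 male LWT mouse on HFC, which is assumed to vary like the other groups.

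With HFnC in place of LFnC, so that both diets are high in fat, the genotype change was lower with cholesterol for 9 members and higher for none, where 4.58% and 1.20% of all genes were and 5.78% were called in all. They were Mki67 (-1.36, SE 0.34, adjusted p = 0.018), Top2a (-1.21, SE 0.32, adjusted p = 0.025), Cdk1 (-0.90), Cenpt (-0.64), Aurkb (-0.62), Cdc14a (-0.52), Cdc42se2 (-0.49), Bub1b (-0.46) and Cdc25c (-0.35). As the mean of its array rows Top2a stood at -0.58 and was not called (adjusted p = 0.072). Of 24 fits that each left out 1 mouse, Cdk1 lost its call in 18, Bub1b in 14, Cdc25c in 9 and Top2a in 2. This comparison shares the HFC mice with the one before. Over all genes 3.73% were lower and 7.89% higher with array medians centred. With array medians centred the split was 6 lower and 4 higher, and without HFC male LWT replicates 1 and 2 no member was called, Mki67 standing at -0.95 (adjusted p = 0.18). Without HFnC female LKO replicate 1 the count was 5. The count was 14 without HFC female LWT replicate 2 or HFnC female LKO replicate 3, and 26 without HFC male LWT replicate 3. The shares of all genes in these fits are not given here.

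Within LWT mice, 5 members were higher on HFC than on HFnC (3.50% of all genes, with 1.16% lower and 4.67% called in all): Mki67 by 0.83, Cenpt by 0.41, Cdc14a by 0.39, Cdc42se2 by 0.35 and Cdc25c by 0.25. Without HFC male LWT replicate 1 the count was 1, without HFC male LWT replicate 3 it was 23 and without HFC female LWT replicate 2 it was 15. Leaving out HFC female LWT replicate 3, HFnC female LWT replicate 3 or any of the HFnC male LWT mice gave 3. The shares of all genes in these fits are not given here. Of 12 such fits, Mki67 and Cdc25c each lost their call in 8, and Cdc14a and Cdc42se2 each in 1. When only the groups compared were fitted, Mki67 was not called (adjusted p = 0.22). Within LKO mice the only call was Cenpv, higher on HFC by 0.20 (0.336% of all genes higher, 0.671% lower, 1.01% called in all). It was lost in 7 of the fits that each left out 1 mouse, those without HFC female LKO 1, 2 or 3, HFC male LKO 1 or 3, HFnC female LKO 2 or HFnC male LKO 3. Between HFnC and LFnC no member was called in LWT mice (0.188% of all genes called, 0.0966% higher and 0.0915% lower), and in LKO mice Mcm10 was higher and Cdc42se2 lower, by -0.35. That count of 2 was 10 without HFnC female LKO 1, 4 without LFnC male LKO 1 or HFnC male LKO 2, and 1 without LFnC female LKO 1, LFnC male LKO 2 or HFnC female LKO 3. Over all diets together the genotype called 1 member, Cdc42ep1 at 0.19 (2.06% of all genes higher, 0.585% lower, 2.64% called in all), and 3 without HFC male LWT 1 or HFnC female LKO 3. Besides Mcm10 and Cenpm, sex called Cdc42ep2, which was higher in females by 0.19 in LWT and 0.15 in LKO mice. Of 18 fits that each left out 1 mouse, Cdc42ep2 lost its call in LKO mice in 14. Cenpm lost its call in LWT mice in 6 of 18. The LKO count by sex of 2 was 4 without LFnC male LKO 2 and 1 without any of 9 others: LFnC male 1, LFnC females 2 and 3, HFnC female 2, HFnC male 3, HFC females 1 and 3 and HFC males 2 and 3.

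For a view by mouse, 17 members of the classical division programme were read together: Mki67, Top2a, Ccna2, Ccnb2, Cdk1, Aurka, Aurkb, Plk1, Plk4, Bub1, Bub1b and Mcm2 to Mcm7. This group was put together with the values known, so the direction its genes share was set by that choice, and nothing was tested on it. Over all 84 members, the median genotype change within batches 1, 2 and 3 was 0.079, 0.053 and 0.104 on LFnC and -0.254, -0.071 and -0.032 on HFC.

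Levels differed widely between single mice. The level of the 17 genes, as the mean of log2 values centred per gene, was 0.78, -0.31 and 0.27 in HFC LWT females and 0.90, 0.46 and -0.29 in HFC LWT males. It lay between -0.32 and -0.11 in all 6 HFC LKO mice, between -0.39 and -0.16 in LFnC LWT mice and between -0.08 and 0.59 in LFnC LKO mice. Male 1 of the HFC LWT group had the highest value of all 36 mice for 22 of the 84 members, and female 1 of that group for 14. HFnC LKO female 1 had it for 7, and all of these mice are of batch 1. On HFC the change of Mki67 within batches 1, 2 and 3 was -1.72, -0.29 and -0.59.

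The highest mice differed in the Mcm genes, as a description with no test. In male 1 of the HFC LWT group all 11 mitotic genes were among the 5 highest of the 36 mice, but none of Mcm2 to Mcm7 was; its mitotic level was 1.24 and its Mcm level 0.27. In female 1 all 6 Mcm genes and 10 of the 11 mitotic genes were among the 5 highest, with levels of 1.06 for Mcm and 0.63 for mitotic genes. Male 2 had an Mcm level of 0.82 and a mitotic level of 0.27, and HFnC LKO female 1 had 1.01 and 0.39. On chow, LKO male 3 stood at 0.10 for Mcm and 0.58 for mitotic genes, and LKO female 3 at 0.84 and 0.46.

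**Figure D4:**
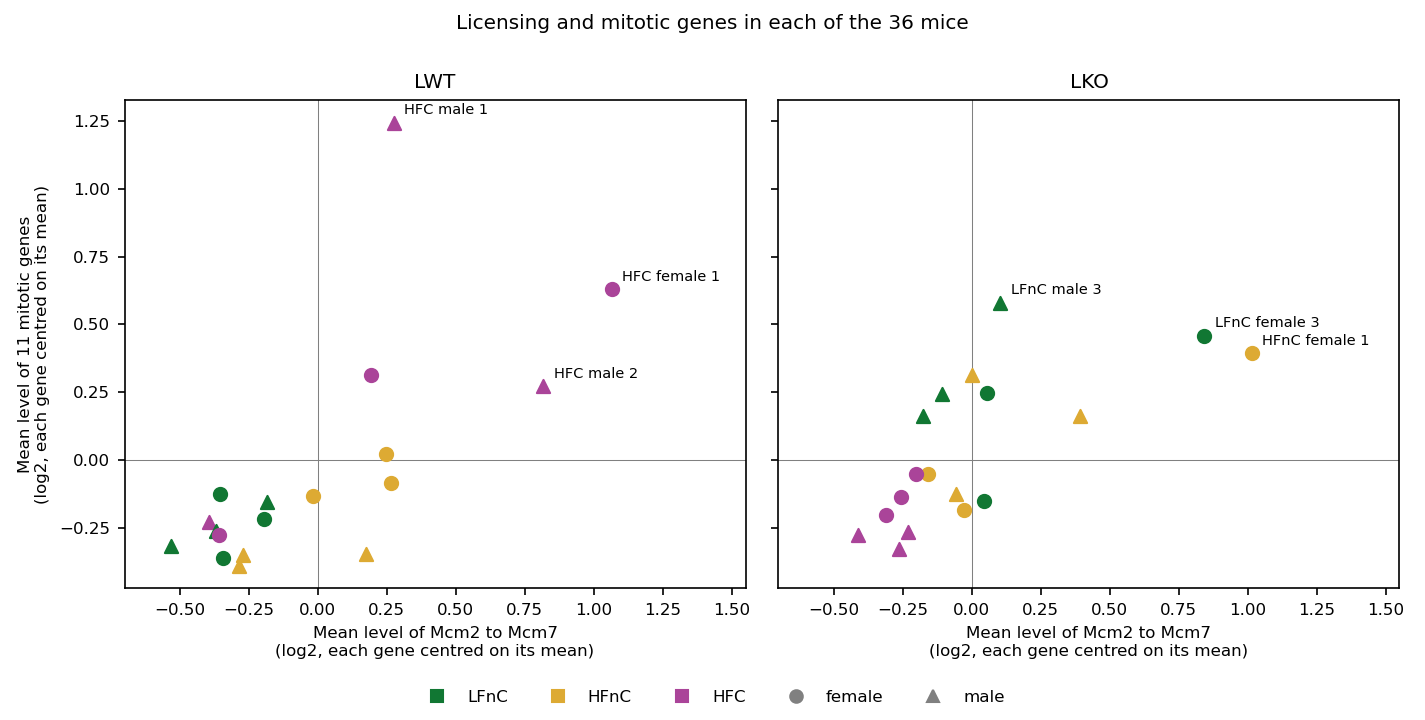
Mean level of 11 mitotic genes against that of Mcm2 to Mcm7 in each mouse, LWT on the left and LKO on the right, coloured by diet, with circles for females and triangles for males; levels are log2 values centred per gene, and mice with a high level of all 17 genes are labelled. HFC LWT male 1 lies at 0.27 and 1.24, far from HFC LWT female 1 at 1.06 and 0.63, and the 6 HFC LKO mice lie together at low values of both.

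Genes of the cycle outside the naming rule were read from lists chosen with earlier results known. Of 48 measured genes of mitosis and cytokinesis 9 rose (18.8%) and none fell on chow, where 14.2% and 19.3% of all genes did, among them Mad2l1 of the spindle checkpoint (0.56), the condensin subunit Smc4 (0.44), Ube2c, a ubiquitin-conjugating enzyme of the anaphase-promoting complex (0.41), and the kinesin Kif18a (0.29). The change was lower on HFC than on LFnC for 30 of the 48 (62.5%, against 14.6% of all genes), as for Sgo2a (-1.10) and Mad2l1 (-1.09), and higher for 1 (2.08%, against 16.7%). On HFC itself Pbk (-0.40) and Aspm (-0.39) fell. All calls of list genes that use HFC mice include HFC male LWT mice 1 and 2. When only the HFC groups were fitted, 0 of the 19664 genes were called for the genotype on HFC. Of 26 DNA replication genes 2 rose on chow (7.69%, below the 14.2% of all genes), Dbf4, the activator of Cdc7 (0.64), and the clamp loader subunit Rfc3 (0.34), and 1 fell, thymidine kinase Tk1 (-0.69; 3.85%, below the 19.3% of all genes). Of 16 regulators of G1 and E2F 7 rose (43.8%) and 2 fell (12.5%) on chow, including Rbl1 (0.77), Ccnd2 (0.46) and Rb1 (0.30) among those that rose and Rbl2 (-0.32) among those that fell; Ccnd1, the cyclin of G1, fell on HFC (-0.86, adjusted p = 0.047). Of 11 inhibitors of cyclin-dependent kinases and p53 targets 3 rose and 3 fell (27.3% each), with Btg2 at 0.56, Cdkn2c at 0.49, Cdkn1b at 0.19 and Cdkn1c at -0.22. Of 13 DNA damage genes 1 rose (7.69%), the checkpoint kinase Atr (0.51), and none fell.

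Markers of other cell types moved in some of the same mice. On chow all 7 measured markers of cholangiocytes and ductular cells and 9 of 12 of stellate cells and fibroblasts rose in LKO livers, and none fell, where 14.2% of all genes rose and 19.3% fell. The ductular level ran from -0.61 to -0.01 in LFnC LWT mice and from 0.83 to 1.65 in LFnC LKO mice, and the stellate level from -0.41 to -0.25 and from 0.32 to 0.82. Macrophage markers had 7 of 15 that rose (46.7%) and 3 that fell, with levels of -0.39 to 0.09 and -0.00 to 0.51, neutrophil markers 4 of 10 that rose, and T, B and NK cell markers 2 of 11 that rose (18.2%, near the share of all genes) and 1 that fell (9.09%). Defining markers were read in all these livers, Krt19 at 7.57 to 8.31 in LWT and 8.54 to 9.10 in LKO mice on chow and Epcam at 6.82 to 7.35 and 8.74 to 9.84; the array gives no true 0. Their part in the division genes' changes was not tested.

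On HFC the ductular and stellate levels were 0.89 and 1.20 in LWT male 1 and 0.22 and 0.52 in LWT male 2. In LWT female 1 they were -0.48 and -0.24. Its level of the 17 division genes was 0.78 and its mitotic level 0.63, against 0.90 and 1.24 in LWT male 1. In the 6 HFC LKO mice the ductular level ran from -0.56 to -0.22 and the stellate level from -0.43 to -0.11, and on HFnC female LKO 1 stood at 1.49 and 0.78. The level of T, B and NK cell markers was -0.05 to 0.47 in HFC LWT and -0.26 to 0.01 in HFC LKO mice. Pancreatic acinar genes, whose level ran from -1.71 to 4.50 over the mice, were uneven within groups, and their part was not tested.

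**Figure D5:**
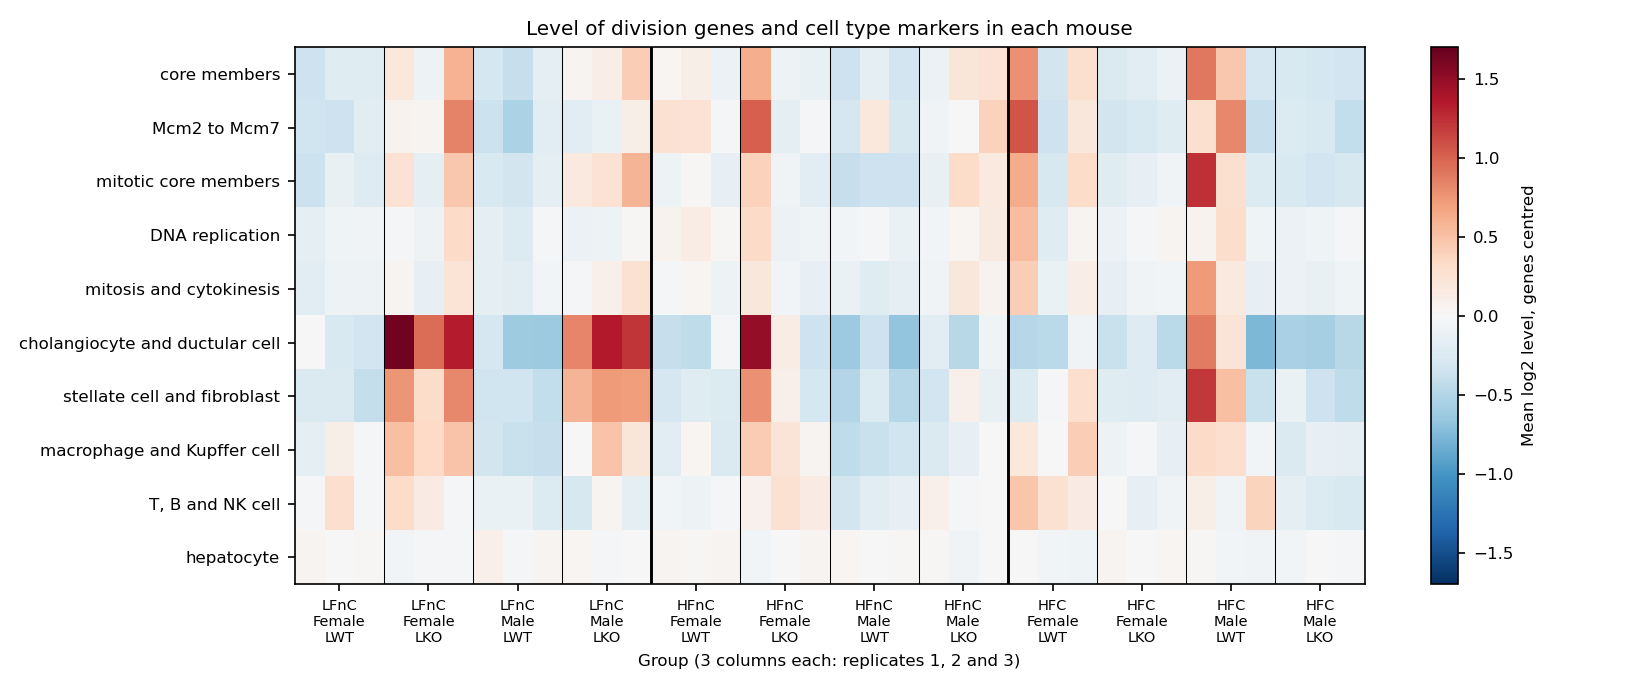
Level of division genes and of cell type marker lists in each mouse, as the mean of log2 values centred per gene; rows are gene lists, columns are mice in groups of 3 (replicates 1 to 3), red is high and blue low, and core members are the 17 genes of the division programme. Ductular and stellate rows are red in all LFnC LKO mice and in HFC LWT male 1, and blue in HFC LWT female 1, where the rows of core members, Mcm2 to Mcm7 and mitotic core members are red.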

How the data were processed

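Total RNA of each liver was labelled with biotin and hybridised, 1 mouse per array. The authors deposited log2 values made with RMA, per the submitters' processing notes, which leave version, annotation and batch correction unstated. No value stood in 9856 of 35556 rows. Rows with 1 symbol in the probe table (20781 of 25700 with values) were kept, the row with the highest mean standing for each gene. Array medians ran from 7.45 to 7.58, and the number of mice limits the precision.

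All 36 arrays were fitted in limma 3.58.1 (R 4.3.3) with 1 mean per group and empirical Bayes moderation, 15 comparisons, and Benjamini-Hochberg adjustment over 19664 genes; the fit was tested on simulated data. Mice carry their own identifiers in the labels. Replicate numbers equal the batch in the labels, which pairs samples, so a fit with the batch as a block was tried. Alternatives were array centring, removal of genes with a mean under 6, only the groups compared, the mean of a gene's rows, an intensity trend, and leaving out mice. Members and lists were chosen with earlier results of these data known. Genes named are a fixed set of well-known members, up to 10 called members per comparison with the largest changes, the extremes of each role on LFnC and up to 4 genes per list with the smallest p. Other genes and values named, such as Plk3 and Cenpm, were chosen after their values were seen. Of the 84 members, 7 had no promoter in the RefSeq table.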

Additional observations from a re-analysis of the deposited data

Results flagged for a closer look

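The genotype change differed between diets by the test of the difference itself. Between HFC and HFnC it differed for 9 members, where 5.78% of all genes were called, and for none without HFC male LWT replicates 1 and 2: Mki67 (-1.36), Top2a (-1.21), Cdk1 (-0.90), Cenpt (-0.64), Aurkb (-0.62), Cdc14a (-0.52), Cdc42se2 (-0.49), Bub1b (-0.46) and Cdc25c (-0.35). Between HFC and LFnC it differed for 35 members, where 31.3% of all genes were called. Without those 2 mice the count fell for the members and for all genes. Among the 35 were Mki67 (-1.76), Mcm6 (-1.69), Top2a (-1.52), Ccna2 (-1.44), Ccnb2 (-1.34), Bub1 (-1.07), Mcm4 (-1.06), Cdk1 (-1.03), Plk1 (-1.01), Plk2 (-0.92), Mcm2 (-0.89), Aurkb (-0.66), Bub1b (-0.45) and Cdc20 (-0.41). Cdc20 lost its call in 15 of 24 fits that each left out 1 mouse. Several of these genes were not called without HFC male LWT replicates 1 and 2. They were Mcm6 (-1.12), Bub1 (-0.74), Mcm4 (-0.73), Cdk1 (-0.71), Plk2 (-0.66), Mcm2 (-0.58), Bub1b (-0.30) and Cdc20 (-0.21), with the difference in that fit. Both sets of differences share the HFC mice.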

How the results depend on the processing

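With the replicate block 24 members were called for the genotype on LFnC (32.9% of all genes), 34 for HFC against LFnC (30.9%) and 10 for HFC against HFnC (6.00%). No count moved by over 1.5 times, and Cdc20 lost its call between HFC and LFnC (adjusted p = 0.052). Without HFC male LWT replicates 1 and 2 the counts of called members were 8 for the genotype over all diets, 0 for the difference between HFC and HFnC, 12 for that between HFC and LFnC, 6 for fat in LKO and 0 for cholesterol in LWT. That fit leaves 1 male LWT mouse on HFC. Its shares of all genes are not given here, so its counts are not read as results about the members. With only the groups compared 5 members were called for the difference between HFC and HFnC (3.63% of all genes) and 1 for fat in LKO (0.366%). Cholesterol then called 1 in LWT (1.59%) and 0 in LKO (0.564%). With dim genes removed fat in LKO called 5 of the 74 members kept (6.38% of all genes kept). With an intensity trend sex in LKO called 1 (5.50% of all genes). In 100 bases before the start, 12 member promoters held CHR words and 4 held E2F words. No called change of a named gene turned sign; some that were not called did, such as 1 of the 17 genes of the division programme on HFnC with array medians centred and 1 on HFC without the 2 males. Single mice left out gave these ranges of called members: LFnC 15 to 25, HFnC 0 to 0, HFC 0 to 26, over all diets 1 to 3, between HFnC and LFnC 0 to 3, between HFC and HFnC 5 to 26, between HFC and LFnC 29 to 43, genotype by sex 0 to 0 on LFnC and on HFC, fat 0 to 0 in LWT and 1 to 10 in LKO, cholesterol 1 to 23 in LWT and 0 to 1 in LKO, sex 2 to 4 in LWT and 1 to 4 in LKO. The cause of these shifts was not tested. The share of all genes called in each fit without 1 mouse is not given here, so these counts are not read as results about the members. Changes of dim genes, such as Bub1 and Cdc25c, may be understated.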
